A study of Mus musculus with 4 samples.

Results

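Brain genes that take up, convert and package glutamate were examined in the cerebral cortex of mice labelled Ndrg2-/-. The set held 9 genes: the plasma membrane glutamate transporter genes Slc1a1, Slc1a2, Slc1a3 and Slc1a6, the glutamine synthetase gene Glul, the glutamate dehydrogenase gene Glud1, and the vesicular glutamate transporter genes Slc17a6, Slc17a7 and Slc17a8. Every non-control probe whose transcript accession mapped to one of these symbols was taken, which gave 13 of the 39429 probes on the array. The probes name the transcripts NM_009199 (Slc1a1, chromosome 19), NM_011393 and NM_001077514 (Slc1a2, chromosome 2), NM_148938 (Slc1a3, chromosome 15), NM_009200 (Slc1a6, chromosome 10), NM_008131 (Glul, chromosome 1), NM_008133 (Glud1, chromosome 14), NM_080853 (Slc17a6, chromosome 7), NM_182993 (Slc17a7, chromosome 7) and NM_182959 (Slc17a8, chromosome 10). All 9 genes were found, and all 13 probes passed the filter on dim probes. Slc1a2, Slc1a3, Glul and Glud1 (7 probes) were treated as glial, and Slc1a1, Slc1a6, Slc17a6, Slc17a7 and Slc17a8 (6 probes) as neuronal. That division follows their best known site of expression, and none of the genes is restricted to 1 cell type with certainty.

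Both groups were male C57BL/6N mice aged 3 months, labelled wild type or Ndrg2-/-. Ndrg2 is a gene of the N-myc downstream regulated family that brain astrocytes express. Each of 4 dual-colour Agilent arrays carried 1 cortical RNA sample labelled Ndrg2-/- in Cy5 against 1 wild-type sample in Cy3, from 200 ng of total RNA each. No array exchanged the dyes, so genotype and dye cannot be told apart. The labels do not say what part of Ndrg2 was removed, or if mice were pooled, so any p-value speaks only of the spread among the samples on these arrays. A ratio below is the log2 of the sample labelled Ndrg2-/- over its wild-type partner, given for arrays 1 to 4 in that order, with the SD over n = 4 arrays after ±. In these bulk samples, fewer cells of a type and less RNA per cell cannot be told apart.

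Glutamate released at excitatory synapses is cleared by sodium-driven transporters, most of it by astrocytes. Astrocytes convert it to glutamine with glutamine synthetase and pass the glutamine to neurons, which make glutamate from it again, and vesicular transporters load it into synaptic vesicles. Glutamate dehydrogenase links the same pool to mitochondrial energy metabolism.

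The sequences upstream of 4 members are shown, because 3 of them (Slc1a1, Glul and Slc17a6) were the ones whose probes passed the test below and Slc1a2 encodes the main transporter of the astrocytes. Each is the 250 bases before the gene's start in RefSeq (GRCm38.p6), 5′ to 3′ on the gene's strand, and capitals mark the searched motifs. RefSeq gives Slc17a6 a pair of starts, and the window of the first is printed.
Slc1a1, chr19:28834885-28835134, + strand: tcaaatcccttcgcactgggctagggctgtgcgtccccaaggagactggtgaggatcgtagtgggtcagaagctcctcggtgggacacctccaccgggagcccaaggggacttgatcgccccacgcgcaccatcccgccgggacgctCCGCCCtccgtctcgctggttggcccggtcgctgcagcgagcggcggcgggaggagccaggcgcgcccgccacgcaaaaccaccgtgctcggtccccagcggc
Glul, chr1:153899679-153899928, + strand: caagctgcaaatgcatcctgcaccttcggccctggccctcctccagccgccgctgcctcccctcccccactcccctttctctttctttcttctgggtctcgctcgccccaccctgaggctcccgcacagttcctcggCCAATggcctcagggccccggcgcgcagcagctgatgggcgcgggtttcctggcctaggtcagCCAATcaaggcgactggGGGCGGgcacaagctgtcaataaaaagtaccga
Slc17a6, chr7:51621580-51621829, + strand: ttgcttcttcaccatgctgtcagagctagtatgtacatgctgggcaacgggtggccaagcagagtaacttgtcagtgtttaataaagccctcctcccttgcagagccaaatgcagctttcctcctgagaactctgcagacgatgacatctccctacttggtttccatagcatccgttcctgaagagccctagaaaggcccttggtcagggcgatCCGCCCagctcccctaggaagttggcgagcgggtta
Slc1a2, chr2:102706188-102706437, + strand: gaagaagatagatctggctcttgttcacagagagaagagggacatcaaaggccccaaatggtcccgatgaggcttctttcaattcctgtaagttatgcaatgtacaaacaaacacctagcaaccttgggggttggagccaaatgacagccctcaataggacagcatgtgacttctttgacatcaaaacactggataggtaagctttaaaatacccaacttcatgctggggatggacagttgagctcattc
The motifs searched on both strands were the E-box (CACGTG), the GC box (GGGCGG), the TATA box (TATAAA), the CCAAT box and the cyclic AMP response element (TGACGTCA). The Slc1a1 window and the printed Slc17a6 window each held 1 GC box, the Glul window 1 GC box and 2 CCAAT boxes, and the Slc1a2 window none of these letters. The other Slc17a6 window (chr7:51624387-51624636, GC content 41.2%) held none either. Among 32851 RefSeq windows of the same length, 32.74% held a GC box, 33.85% a CCAAT box, 12.37% a TATA box, 6.021% an E-box and 1.546% the cyclic AMP element. GC content was 70.4% upstream of Slc1a1, 64.8% upstream of Glul, 53.2% upstream of Slc17a6 and 44.8% upstream of Slc1a2, beside a median of 52.4% over all windows. A match is a description of letters in the window and says nothing of binding, which was not measured.

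Ndrg2 itself was not lower in the samples labelled Ndrg2-/-: its 1 tested probe gave ratios of 0.11, 0.37, 0.40 and 0.38 (0.32 ± 0.14, limma adjusted p 0.0173), a call lost without array 2 or 3 (adjusted p 0.0796 and 0.0651). The call was also lost with the scanner software's processed signals and the deposited value table (limma adjusted p 0.0663 with each) and without the pairing by array (0.0599). A probe outside the removed part would check nothing, and which sample of a pair is the mutant is therefore known from its label alone. Array medians of spot signal lay between 94 and 122 (green) or 283 and 335.5 (red). The precision is limited by having 4 arrays. All 13 cortical excitatory neuron marker genes and all 20 astrocyte marker genes had a tested probe. Over the whole array, 12.9% of the 27664 tested probes passed an adjusted p of 0.05 in limma; 7.39% rose and 5.54% fell in the mice labelled Ndrg2-/-. The median ratio of all tested probes was 0.0096.

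Most members lay slightly higher in the samples labelled Ndrg2-/-, and 3 of 13 probes rose: those of Slc1a1, Glul and Slc17a6. That is 23.1% of the member probes, beside the 12.9% called over all probes, which would be 1 to 2 of 13. None fell. In limma, 8 of the 13 had an unadjusted p under 0.05, but the share of all tested probes with one was not counted. The mean was above 0 for 11 probes, and the median over the 13 was 0.14, beside 0.0096 over all tested probes. The share of all tested probes with a mean above 0 was not counted either, so both counts only describe the members. A ratio above 0 on all 4 arrays was seen for 4 probes (Slc1a1, Slc1a3, Glul and Slc17a6), where 21.5% of all tested probes had one, and below 0 on all 4 arrays for the Slc1a6 probe, where 18.0% had one. No member probe passed 1.5 fold by its mean, the study's own criterion of size, and only Slc17a6 did so on any array. For no member probe did the 4 samples labelled Ndrg2-/- lie wholly apart from the 4 wild-type samples, as 7.64% of all tested probes did with the first group above and 5.83% with it below. The 3 calls were lost with the scanner software's processed signals, as in the deposited value table (7.92% of all probes called), with a smaller background offset and without the pairing by array.

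**Figure D1:**
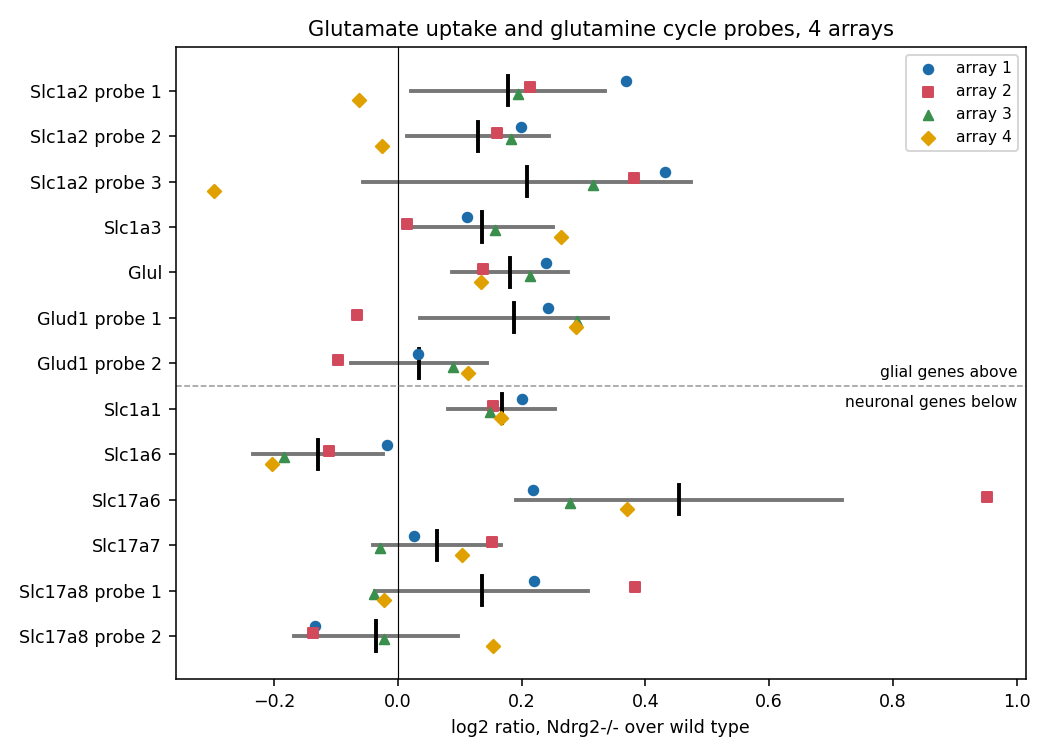
Log2 ratio of each member probe on each of the 4 arrays (Ndrg2-/- over wild type, as labelled), with the mean of the 4 as a black tick and its 95% interval as a grey line. The largest single value is that of Slc17a6 on array 2, at 0.95, and the 3 Slc1a2 probes are the members with their array 4 value below 0 and all others above 0.

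Slc1a2 encodes GLT-1, the transporter that carries most glutamate uptake in forebrain astrocytes. None of its 3 probes passed the test. The brightest (A_55_P1955412) gave ratios of 0.37, 0.21, 0.19 and -0.06, with a mean of 0.18 ± 0.18 and a 95% interval of 0.02 to 0.34 (adjusted p 0.118). The second (A_55_P2136847) gave 0.20, 0.16, 0.18 and -0.03, with a mean of 0.13 ± 0.10 (adjusted p 0.122). The third (A_55_P2392625) gave 0.43, 0.38, 0.32 and -0.30, with a mean of 0.21 ± 0.34 (adjusted p 0.253). All 3 probes were thus above 0 on arrays 1 to 3 and below 0 on array 4. On array 4 the normalised log2 signal of the third probe was 10.04 in the sample labelled Ndrg2-/-, the lowest of its group, and 10.34 in the wild-type sample, the highest of its group. Without array 4, the first and the third probe passed (0.26, adjusted p 0.0390, and 0.38, adjusted p 0.0119), and the second missed narrowly (0.18, adjusted p 0.0503). Leaving out array 4 also called more of all probes (8.62%) than leaving out array 1, 2 or 3 (3.48%, 2.34% and 4.23%). Among these fits, the calls of the first and the third probe thus depended on array 4.

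**Figure D2:**
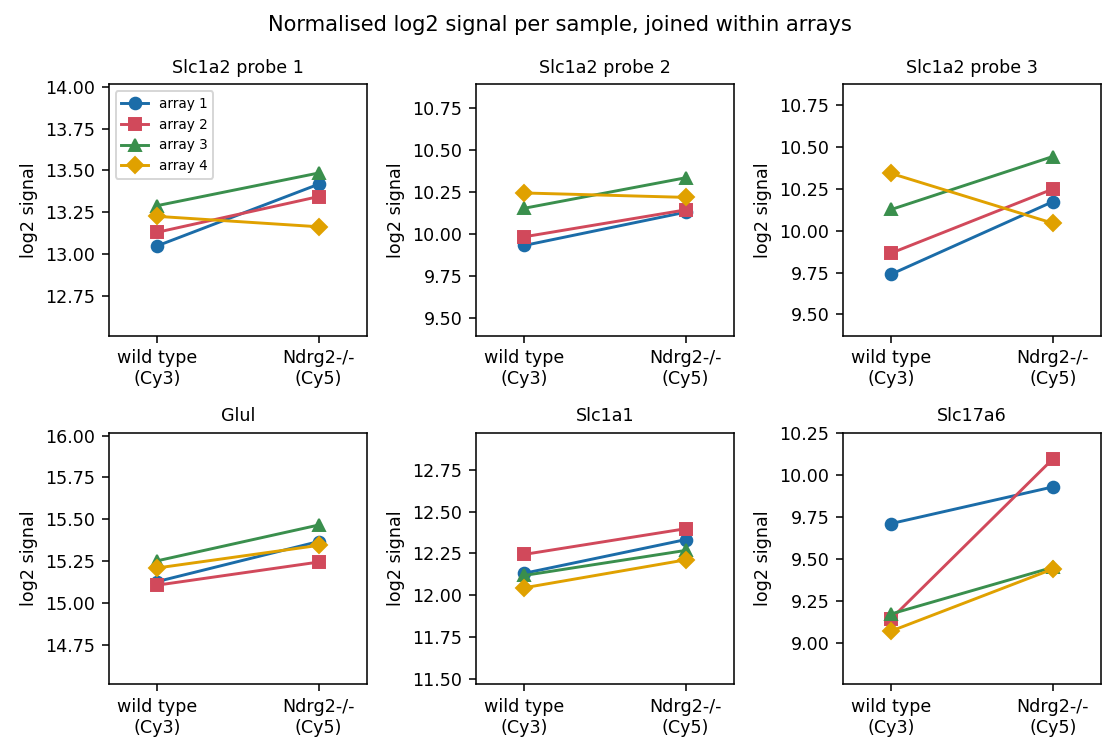
Normalised log2 signal of selected member probes in the 4 wild-type and the 4 samples labelled Ndrg2-/-, with a line joining the 2 samples of an array. The lines of Glul and Slc1a1 all rise, while the array 4 line of Slc1a2 falls, from 13.23 to 13.16 for the brightest probe.

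Slc1a3 encodes GLAST, the other main astrocytic transporter. Its probe gave 0.11, 0.01, 0.16 and 0.26, above 0 on every array, with a mean of 0.14 ± 0.10 and a 95% interval of 0.02 to 0.25, and it missed the threshold (adjusted p 0.105). Its highest ratio was on array 4, where all 3 Slc1a2 probes were lowest. The astrocyte marker list had medians of 0.10, 0.08, 0.12 and 0.10 on the 4 arrays, so its median on array 4 did not stand apart. A median hides single probes: some of the list were, like Slc1a2, below 0 on array 4 alone, while most were not.

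Slc1a1 encodes EAAC1, a neuronal transporter that also takes up cysteine. Its ratios were 0.20, 0.15, 0.15 and 0.17, and its mean of 0.17 ± 0.02 (95% interval 0.08 to 0.25, 1.12 fold) passed the test (adjusted p 0.0295). By flipping the signs of the 4 ratios in every way, an exact two-sided permutation test gave p = 0.125, its lowest possible value here. The normalised log2 signal was 12.33, 12.40, 12.27 and 12.21 in the samples labelled Ndrg2-/- and 12.13, 12.24, 12.12 and 12.04 in their wild-type partners. Each sample lay above its partner, but the groups overlapped. The probe is printed at 10 places on each array, and all 40 of its spots had a ratio above 0, from 0.081 to 0.228. The SD between single spots of 1 array ran from 0.0195 to 0.0376. The SD between the array means was 0.0235. Each array mean averages 10 spots, so these SDs are not of the same kind and their sizes cannot be compared directly. The spots repeat a measurement of the same RNA and are not replicates of the genotype. With any 1 array left out the value stayed between 0.16 and 0.17 and the call was lost (adjusted p at least 0.0599).

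**Figure D3:**
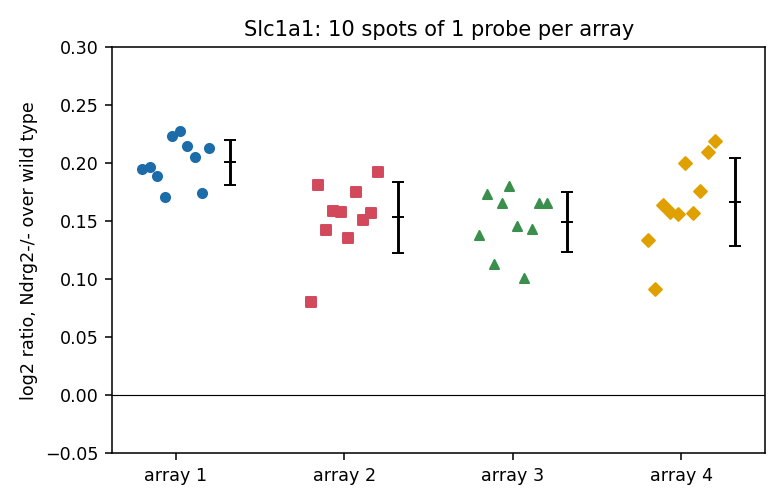
Log2 ratio of each of the 10 Slc1a1 spots on each array, with the mean ± SD over the spots of that array beside them. All 40 spots lie above 0, and the 4 arrays overlap.

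Slc1a6 encodes EAAT4, known chiefly from cerebellar Purkinje cells. It was the only member with ratios below 0 on all arrays (-0.02, -0.11, -0.18 and -0.20). The mean of -0.13 ± 0.08 had a 95% interval of -0.23 to -0.02 and missed the threshold (adjusted p 0.0986). Under median centring without loess it was at 0.23, where the median of all probes was at 0.22. That scaling moved probes by unlike amounts: Glul went from 0.18 to 0.73 and the dim Slc17a8 probe A_52_P163021 from -0.03 to -0.47. The 0.22 is therefore not a level for probes as bright as that of Slc1a6.

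Glul, whose enzyme converts glutamate and ammonia to glutamine in astrocytes, rose. Its ratios were 0.24, 0.14, 0.21 and 0.13, and the mean was 0.18 ± 0.05 (95% interval 0.09 to 0.27, 1.13 fold, adjusted p 0.0293). The exact two-sided sign-flip test gave p = 0.125. The normalised log2 signal was 15.37, 15.24, 15.47 and 15.34 in the samples labelled Ndrg2-/- and 15.13, 15.11, 15.25 and 15.21 in their partners. The groups touched only through the lowest of the first and the highest of the second. The probe was among the brightest, at percentile 97.7 of the tested probes. Of the 628 probes at least as bright, 26.4% were called higher and 5.25% lower, so a call in this direction was commoner there than on the array as a whole (7.39%); what part brightness has in the Glul value was not tested. Glul kept its call without array 4 (0.20, adjusted p 0.0489) and lost it without array 1, 2 or 3 (adjusted p 0.0998, 0.0889 and 0.111).

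Glud1 is the only other enzyme gene of the set and lies on chromosome 14, as Ndrg2 does, 75 tested genes away among the 543 of that chromosome. One probe (A_55_P2065716) gave 0.24, -0.07, 0.29 and 0.29, a mean of 0.19 ± 0.17 (adjusted p 0.0963). The other (A_55_P2108171), which names the same transcript, gave 0.03, -0.10, 0.09 and 0.11, a mean of 0.03 ± 0.09 (adjusted p 0.655). Both were below 0 on array 2 alone. Without array 2 the first probe passed (0.27, adjusted p 0.0467) and the other did not (0.08, adjusted p 0.362). Of the 721 tested probes of chromosome 14 genes, 23.2% were called in either direction.

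The VGLUT2 protein, encoded by Slc17a6, marks mostly incoming thalamic axons in the adult cortex and few cortical cell bodies. The arrays measured RNA and not this protein. Among the vesicular transporters, Slc17a6 had the highest mean ratio. Its ratios were 0.22, 0.95, 0.28 and 0.37, with a mean of 0.45 ± 0.34 (95% interval 0.19 to 0.72, 1.37 fold, adjusted p 0.0408). The exact two-sided sign-flip test gave p = 0.125. The normalised log2 signal was 9.93, 10.10, 9.45 and 9.44 in the samples labelled Ndrg2-/- and 9.71, 9.14, 9.17 and 9.07 in their partners. The groups overlapped because the wild-type sample of array 1 was high, and array 2 held the widest gap. Without array 2 the mean fell to 0.29 (adjusted p 0.0521). The call was lost with any other array left out too (adjusted p 0.0645 to 0.0773). A list of 12 thalamic marker genes, 9 of them tested with 13 probes, had 2 probes higher and 1 lower. That is 23.1% of its tested probes, beside 12.9% of all tested probes. The list had medians of 0.07, 0.10, 0.07 and 0.06 on arrays 1 to 4. Its part in the Slc17a6 value was not tested.

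Slc17a7 (VGLUT1), the main vesicular transporter of cortical excitatory neurons, gave 0.03, 0.15, -0.03 and 0.10, a mean of 0.06 ± 0.08 with a 95% interval of -0.04 to 0.17 (adjusted p 0.362). The cortical excitatory marker list had 4 of 19 probes higher, none lower, and a median of 0.08. Its share called was 21.1%, beside 12.9% of all tested probes. The difference of Slc17a7 from Slc17a6 within an array was -0.19, -0.80, -0.31 and -0.27, so the ratio of Slc17a6 was the higher on each of the 4 arrays. Slc17a8 (VGLUT3), found in scattered neurons that use other main transmitters, had 2 probes that did not pass. One (A_51_P210350) gave 0.22, 0.38, -0.04 and -0.02, with a mean of 0.14 ± 0.20 (adjusted p 0.251). The other (A_52_P163021) gave -0.13, -0.14, -0.02 and 0.15, with a mean of -0.03 ± 0.14 (adjusted p 0.712). The latter was among the dimmest probes tested, at percentile 1.12 of signal, and the 2 probes took opposite signs on arrays 1, 2 and 4.

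Glial and neuronal members did not separate by array. With each gene as the mean of its probes, the 4 glial genes averaged 0.21, 0.08, 0.20 and 0.12 (0.15 ± 0.06). The 5 neuronal genes averaged 0.09, 0.25, 0.04 and 0.10 (0.12 ± 0.09). The glial minus neuronal difference was 0.11, -0.17, 0.16 and 0.02, which is 0.03 ± 0.15, so it was smaller than its spread and changed sign between arrays. Array 2 gave the negative value, with the highest neuronal mean and the lowest glial mean. Without Slc17a6 the difference was 0.14, 0.0014, 0.22 and 0.08 (0.11 ± 0.09), no longer negative but still lowest on array 2. Leaving Slc17a6 out was chosen after its values were seen. By single genes, the glial means ran from 0.11 (Glud1) to 0.18 (Glul), while the neuronal means ran from -0.13 (Slc1a6) to 0.45 (Slc17a6). The spread within the neuronal genes was thus wider than the gap between the classes.

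**Figure D4:**
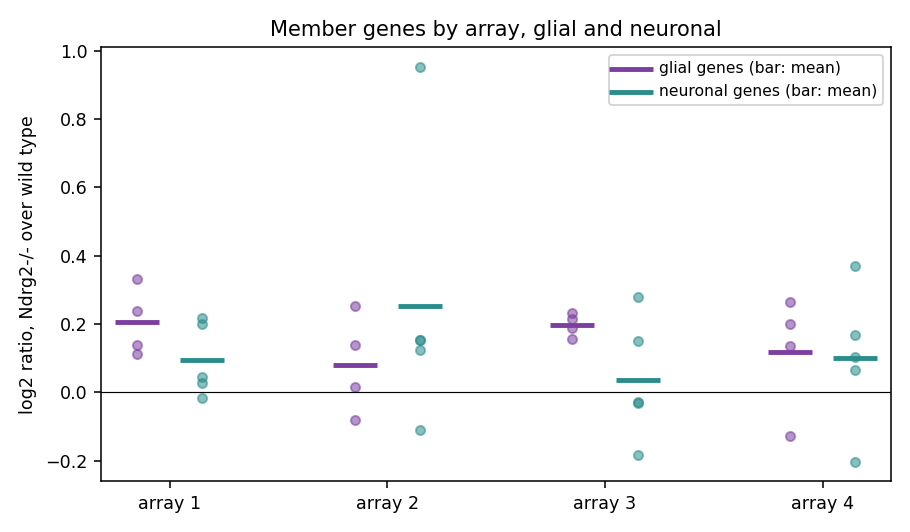
Mean log2 ratio of the 4 glial and the 5 neuronal member genes on each array, with the single genes as points. The glial mean is the higher on arrays 1, 3 and 4, and the neuronal mean on array 2, where Slc17a6 stands at 0.95.

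The other genes that move glutamate, glutamine and their partners were read from a list of 60 genes, of which 59 had a tested probe. Of 72 tested probes, 14 were called (19.4%), 9 higher and 5 lower, beside 12.9% of all probes, and the median was 0.05. The largest changes were in carriers that exchange amino acids across the plasma membrane. Genes of this list named without a call were chosen for their role after their values were seen. Of 6 probes for such carriers, 2 rose. Slc1a4, the neutral amino acid transporter ASCT1 of the same family as the glutamate transporters, gave 0.65, 0.48, 0.57 and 0.43 (0.53 ± 0.10, adjusted p 0.00127). Slc7a11, the exchanger that imports cystine against glutamate, gave 0.57, 0.50, 0.51 and 0.43 (0.50 ± 0.06, adjusted p 0.000878). Both exceeded the mean ratio of every member, and both passed with each array left out and without the pairing. The ASCT2 gene Slc1a5 and Slc7a10, the astrocytic serine and glycine carrier, did not pass (0.18 and -0.02 for the probes of Slc1a5, -0.07 for Slc7a10).

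Glutamine carriers gave 1 call among 12 probes. Slc7a8, a neutral amino acid carrier of the large type, fell, with ratios of -1.29, -1.18, -0.99 and -1.01 (-1.12 ± 0.14, adjusted p 0.000295). It lies 27 tested genes from Ndrg2 on chromosome 14 and was the only called gene of the list past 1.5 fold by its mean. The astrocytic glutamine exporter Slc38a3 was at -0.06 ± 0.05 (adjusted p 0.329) and the neuronal importer Slc38a2 at 0.22 ± 0.19 (adjusted p 0.0790). Slc38a1, the other neuronal importer, had 3 probes at 0.12, 0.08 and -0.07. Slc38a5 split by array, at 0.88, 0.55, -0.40 and -0.22, and was not called (adjusted p 0.520).

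Of 14 probes for enzymes of glutamate metabolism, 3 rose and 2 fell. Bcat2, the mitochondrial branched-chain transaminase, was at 0.27 ± 0.15 (adjusted p 0.0286), Aldh18a1, which starts proline synthesis from glutamate, at 0.22 ± 0.10 (adjusted p 0.0281) and Gpt2, the mitochondrial alanine transaminase, at 0.21 ± 0.06 (adjusted p 0.0216). The 2 that fell were Pcx, pyruvate carboxylase (-0.19 ± 0.06, adjusted p 0.0270), and Asns, asparagine synthetase (-0.15 ± 0.03, adjusted p 0.0428). These 2 were named after their values were seen.

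Of 5 mitochondrial carriers, the glutamate carrier Slc25a18 rose (0.22 ± 0.12, adjusted p 0.0332) and the oxoglutarate carrier Slc25a11 fell (-0.20 ± 0.11, adjusted p 0.0419). Among 10 probes for handling of GABA, which is made from glutamate, only that of the transporter Slc6a13 rose (0.42 ± 0.09, adjusted p 0.00356). Slc6a13 is also a meningeal marker, and its probe is itself counted in the meningeal list and among the higher ones. The meningeal list had 12 of 13 probes higher and none lower, with medians of 0.43, 0.43, 0.25 and 0.60 on arrays 1 to 4, and its part in the Slc6a13 value was not tested. Of 11 probes for the ion and water channels and pumps that support uptake, 1 rose: Atp1b2, the glial sodium pump beta subunit (0.19 ± 0.03, adjusted p 0.0218). The 2 probes of the water channel gene Aqp4 missed the threshold (0.28, adjusted p 0.0580, and 0.19, adjusted p 0.107), and the potassium channel gene Kcnj10 was at 0.01 ± 0.09 (adjusted p 0.886). Of 14 probes for proteins that regulate these transporters, Arl6ip5, whose product binds EAAC1, fell (-0.59, -0.17, -0.27 and -0.60, mean -0.41 ± 0.22, adjusted p 0.0202). Nedd4l, a ubiquitin ligase, rose at 1 probe (0.22 ± 0.12, adjusted p 0.0405) and not at its other (-0.08).

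Of the 14 called genes of this list, Slc1a4, Slc7a11, Slc7a8 and Slc6a13 passed with each array left out in turn. Bcat2 lost its call without array 1, 2 or 4 (adjusted p 0.0574 to 0.117), Gpt2 without array 2, 3 or 4 (0.0540 to 0.0949) and Arl6ip5 without array 1 or 4 (0.0526 to 0.0682). Slc25a18 (0.0972 to 0.104) and Slc25a11 (0.0968 to 0.145) lost theirs without array 1, 2 or 3. Aldh18a1 (0.0540 to 0.108), Atp1b2 (0.0527 to 0.0853), Nedd4l (0.0537 to 0.108), Pcx (0.0642 to 0.0929) and Asns (0.0891 to 0.127) lost theirs without any 1 array, the values in parentheses being adjusted p from limma. Without the pairing by array, 5 of the 14 kept their call: Slc1a4, Slc7a11, Slc7a8, Gpt2 (limma adjusted p 0.0475) and Arl6ip5 (0.0234). The others lost theirs, Slc6a13 among them (0.149), with limma adjusted p from 0.0601 (Pcx) to 0.224 (Asns).

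**Figure D5:**
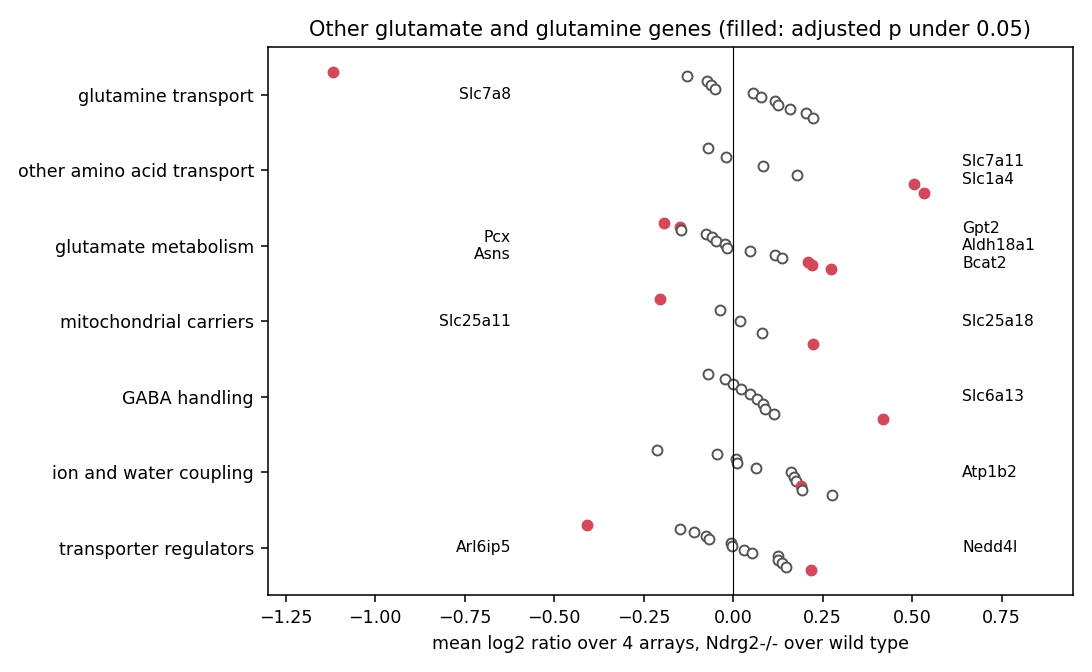
Mean log2 ratio over 4 arrays of each of the 72 tested probes of other glutamate and glutamine genes, by group; filled points passed an adjusted p of 0.05 and are named at the sides. Slc7a8 lies far to the left at -1.12, and Slc1a4 and Slc7a11 lead on the right at 0.53 and 0.50.

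Cell type lists were read beside the members. Of all tested probes, 12.9% were called, 7.39% higher and 5.54% lower. The share called was 92.3% for the meningeal list. For the other lists it ran from 8.33% (endothelial) to 28.6% (inhibitory). The lists hold 8 to 28 tested probes, so their shares are coarse. The meningeal list stood highest, with 12 of 13 probes higher and a median of 0.42, beside 0.14 for the members. The astrocyte list had 5 of 28 probes higher and none lower, with a median of 0.11, near the 0.14 of the members. Its largest value was at 1 of the 3 probes of Gfap, the astrocyte filament gene (0.62 ± 0.23, adjusted p 0.0069). The other Gfap probes were at 0.35 ± 0.32 (adjusted p 0.0687, not called) and 0.18 ± 0.07 (adjusted p 0.0364). Sparcl1 was at 0.29 ± 0.04 (adjusted p 0.0068). The neuron list had 3 of 21 probes higher and 1 lower (median 0.06), the inhibitory list 2 of 14 higher and 2 lower (median -0.02) and the oligodendrocyte list 2 of 16 higher and 1 lower (median 0.05). The microglial list had 3 of 14 higher (median 0.09), the endothelial list 1 of 12 higher (median 0.03) and the choroid plexus list 1 of 8 higher (median 0.13). The striatal list had 2 of 13 higher and 1 lower (median 0.03), and the hippocampal list 2 of 9 lower (median -0.05). What part these lists have in the member values was not tested.

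The genes most like Slc1a2 were found by the Euclidean distance between the 4 log2 ratios, over 15750 genes. They were Pld4 (distance 0.083, ratios of 0.29, 0.25, 0.22 and -0.06), Med13l (0.101) and Med25 (0.106), all with array 4 below 0. The genes most like Slc17a6 were the transcription factor gene Six4 (distance 0.244, ratios of 0.38, 0.80, 0.17 and 0.37), the synaptic organiser gene Cbln4 (0.364, ratios of 0.29, 0.64, 0.11 and 0.43) and the sodium channel gene Scnn1a (0.365, ratios of 0.00, 0.78, 0.42 and 0.18). In each of these 3 the highest ratio was on array 2. With 4 arrays many genes come close to any pattern, and the likeness is a description only.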

How the data were processed

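The authors scanned the 4 arrays and extracted each spot with Agilent Feature Extraction (the file headers name version 11.0.1.1, while the submitters' processing notes name 10.7.3.1). Raw intensity is, per the file headers, a channel's median pixel signal beside its local background. The authors' files also give a log10 ratio of processed red to green signal. The authors' deposited table holds log2 ratios of the same signals. All 4 arrays share 1 slide and scan per the file headers, so there was no batch to compare.

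Ratios were recomputed from the raw intensity with R 4.3.3 and limma 3.58.1: normexp background correction (offset 50), loess within each array (1377 control spots at weight 0), 802 outlier spots left out and replicate spots averaged. The mean pixel signal was planned, but the columns hold the median, which was used. A probe was kept if either channel was well above background on every array (27664 of 39429). An intercept-only limma model (two-sided, Benjamini-Hochberg over all kept probes, call at adjusted p under 0.05; intervals at 95%) was fitted. The array pairs samples of 1 number, whose deviations from the group means correlated at 0.38 to 0.52. Both samples of an array were read from the same spots, so shared spots and paired animals cannot be told apart in this correlation. Symbols came from a RefSeq gene table of GRCm38.p6; the array annotation uses mm9. All members are named, the up to 3 largest calls per group of other genes (else its lowest p), and up to 2 markers per list. The members, the lists and the rule were chosen with earlier results of these data known. 1 gene of the list is not reported here. The steps were tested on simulated data. The alternatives tried are given in the closing section.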

Additional observations from a re-analysis of the deposited data

Results flagged for a closer look

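On 4 of the 26 named values checked, 1 array lay far from the other 3 by Dixon's criterion, which chance alone meets in about 1 group in 20. The Slc1a2 probes A_55_P2136847 and A_55_P2392625 were low on array 4, at -0.026 and -0.30, where their other arrays lay between 0.16 and 0.43. These 2 probes name the same transcript and are not independent. The Glud1 probe A_55_P2065716 was low on array 2, at -0.065. The Atp1b2 probe was high on array 4, at 0.24, beside 0.17 to 0.18 on the others.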

How the results depend on the processing

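Member probes called (3 of 13) fell to 0 with the processed signals, with the authors' deposited table and with a normexp offset of 16, where limma gave 6, 6 and 7 an unadjusted p under 0.05. The share of all probes with such a p was not counted under any setting, so these counts and those below only describe the members. Without the replicate block, that is without the pairing by array, 0 members were called (4 at an unadjusted p under 0.05), 5 other glutamate and glutamine probes in place of 14, and 968 of all probes in place of 3578. With the processed signals or the deposited table, 7 of the other glutamate probes and 2192 of all probes were called. With 1 array left out, 0 to 3 members (0 without array 1 or 3, with 5 and 4 at an unadjusted p under 0.05), 5 to 7 of the other glutamate probes and 647 to 2385 of all probes were called. Median centring without loess moved the median of all probes to 0.22 and the share of calls that were higher from 57.2% to 74.9%. The move was unlike between probes, up to 0.73 for the bright Glul probe and down to -0.47 for the dim Slc17a8 probe A_52_P163021. Values under median centring, and their glial minus neuronal difference, thus have no single level to be read against. Median centring called 13 members, 63 of the other glutamate probes and 21960 probes in all. It moved the glial minus neuronal difference from 0.03 to 0.22. It also took Slc1a6 (0.23), Slc25a11 (0.23), Arl6ip5 (0.0030), Pcx (0.21) and Asns (0.32) from below 0 to above 0. These signs are against 0 alone, where the median of all probes was itself 0.22, so they do not show a reversed change. Arl6ip5 was not called there (limma adjusted p 0.969). Without the filter on dim probes, with both channels required above background and with an intensity trend, 3 members were called each time. Slc1a4, Slc7a11 and Slc7a8 passed under each alternative that gave them a value. Probes near background, such as A_52_P163021 of Slc17a8, limit what can be read from them.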
